A study of Homo sapiens with 18 samples.

Results

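The genes described here are 10 members of the complement system, measured over time in Raji cells: the receptors CR2 and CR1, the membrane regulators CD46, CD55 and CD59, the components C3, CFB, C1R and C1S, and the soluble inhibitor SERPING1. They were taken by symbol from the platform's gene table, with the probe set of highest mean standing for each gene, and make up 10 of 18417 measured genes. Raji, derived from a Burkitt lymphoma, is a long-established line of human B cells that carries Epstein-Barr virus. Per the labels, the cells were given maslinic acid at 19 µM together with a phorbol ester at 0.05 µM and sodium n-butyrate at 3 mM, and were collected at 0, 4, 8, 12, 24 or 48 h, with 3 Affymetrix arrays for each time. The 0 h arrays carry the same 3 compounds in their labels, and neither an arm without them nor untreated later times were analysed here, so the compounds and time in culture cannot be told apart. The arrays of a time are labelled biological replicates, without saying whether they came from separate cultures, so p-values measure the spread between these arrays, which may be technical.

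Complement is a cascade of plasma and cell-surface proteins that tags targets with fragments of C3 and can end in a pore through the membrane. C1R and C1S are the proteases of the first complex of the classical pathway, and SERPING1 (C1 inhibitor) inactivates them. CFB is the protease-bearing factor of the alternative pathway. CD46 and CD55 limit the C3-cleaving enzymes on the cell's own membrane, and CD59 blocks assembly of the terminal pore. CR1 binds C3b. CR2 (CD21) binds C3d, belongs with CD81 to the B cell co-receptor, and is the receptor through which Epstein-Barr virus attaches to B cells.

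CR2 was called lower and CD59 higher from 8 h on, while C1S was called higher at 24 h and C1R at 48 h. The mean of CR2 was already lower at 4 h (-1.11), without a call. The bases just before the start site are shown for CR2 and CD59, the members called at most times, and for CFB, the only matched member with an interferon-type motif in its window. Each sequence is the 250 bases before the first listed start, from RefSeq (GRCh38.p14), 5′ to 3′ on the gene's strand, with motif matches in capitals. CR2 is on the plus strand (chr1:207454078-207454327), CD59 on the minus strand (chr11:33736480-33736729) and CFB on the plus strand (chr6:31945845-31946094).
CR2: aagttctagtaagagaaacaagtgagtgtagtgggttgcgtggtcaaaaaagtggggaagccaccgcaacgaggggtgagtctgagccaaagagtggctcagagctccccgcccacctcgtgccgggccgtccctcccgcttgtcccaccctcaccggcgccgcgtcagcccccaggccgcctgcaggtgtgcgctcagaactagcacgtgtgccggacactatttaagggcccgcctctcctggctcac
CD59: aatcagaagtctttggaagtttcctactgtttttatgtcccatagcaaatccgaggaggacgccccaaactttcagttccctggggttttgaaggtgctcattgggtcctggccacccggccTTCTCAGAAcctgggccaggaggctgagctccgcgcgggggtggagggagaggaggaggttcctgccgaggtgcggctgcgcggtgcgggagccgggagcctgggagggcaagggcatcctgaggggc
CFB: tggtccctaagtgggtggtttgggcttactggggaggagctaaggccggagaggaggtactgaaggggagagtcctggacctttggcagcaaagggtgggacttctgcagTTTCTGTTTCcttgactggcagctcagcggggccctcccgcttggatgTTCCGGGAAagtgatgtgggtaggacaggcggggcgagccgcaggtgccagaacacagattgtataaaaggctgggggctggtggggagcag

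Of the 10 members, 7 were matched in the promoter table (C3, C1S and SERPING1 were not), with 12 windows among them. Both strands were searched for GAAA, any 2 bases and GAAA (the core of the interferon-stimulated response element), TTCNNNGAA (a STAT site), GGG, any 3 bases and TTCC (a kappaB site) and TGANTCA (an AP-1 site, added after values were seen). The CR2 window held none of these. In CFB the interferon-type match lay 140 to 131 bases before the start site and a STAT match 92 to 84 bases before it. In CD59 a STAT match lay 128 to 120 bases before the first listed start, and a window at an internal start held 2 AP-1 matches. For C1R the window at the first listed start held none, and that at an internal start held a STAT match 86 to 78 bases before it. No matches of different motifs overlapped. Among all 35116 windows of this length, 3.02% held the interferon-type core, 6.57% the STAT site, 5.67% the kappaB site and 6.57% the AP-1 site. A match describes the letters of a window and is not a measured binding site.

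The values are log2 intensities as deposited. Array medians ran from 4.03 to 4.25 and lower quartiles from 2.89 to 3.24. Replicate 2 of 8 h had the narrowest interquartile range, 2.37 against 2.74 to 3.16 on the other 17 arrays. A group mean under the lower quartile of each of its arrays is called near background. The 5 measured B cell markers (MS4A1, CD79A, CD79B, CD22 and PAX5) averaged 6.33 to 7.96 on the 18 arrays. This average was 7.687 to 7.815 on the 0 h arrays and 7.166 to 7.96 at 4 h, which overlap. It was lower on all arrays of 8 h and later, at 6.515 to 6.804 at 12 h and 6.516 to 7.431 at 48 h. Averages were 3.28 to 3.83 for 6 T cell markers, 3.30 to 3.66 for 8 monocyte markers, 3.42 to 3.73 for 6 hepatocyte markers, 3.55 to 3.83 for 6 fibroblast markers and 3.48 to 3.91 for 6 epithelial markers. The limma F test for any difference from 0 h called CD3D of the T cell list (1.57 at 24 h) and SERPINA1 of the hepatocyte list (0.80 at 48 h). Each is 1 gene of its 6, where 16.4% of all genes passed. The test called 0 of the monocyte, fibroblast and epithelial genes, of which CD14, COL3A1 and KRT19 had the smallest adjusted p (0.244, 0.337 and 0.113). In such bulk samples, fewer cells of a type and less RNA per cell cannot be told apart.

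**Figure D1:**
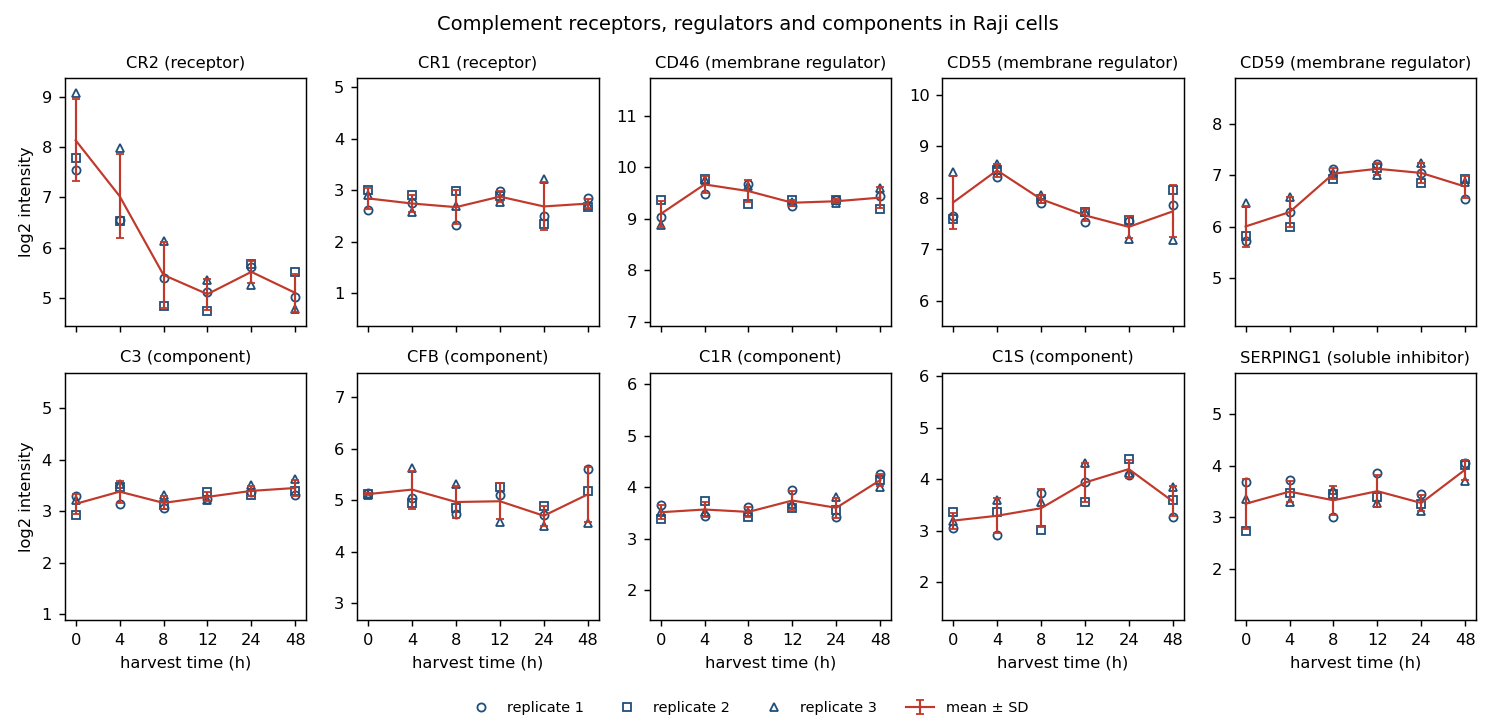
Log2 intensity of the 10 complement genes (vertical axes) at the 6 harvest times (horizontal axis, h, evenly spaced). Symbols are single arrays and the line joins means ± SD of 3 arrays. CR2 lies at 5.07 at 12 h against 8.14 at 0 h, CD59 is highest at 12 h (7.13), CD55 at 4 h (8.54), C1S at 24 h (4.20), and C1R and SERPING1 at 48 h.

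Among the 10 members, the F test called 5 (CR2, CD59, C1S, C1R and CD55), against 16.4% of all 18417 genes at an adjusted p under 0.05. The members were chosen with the fall of CR2 known, so this count does not test whether complement genes change more often than others. The adjusted p was 8.90e-05 for CR2, 0.00129 for CD59, 0.0213 for C1S, 0.0302 for C1R and 0.0365 for CD55. Those not called were CD46 (adjusted p = 0.142), SERPING1 (0.246), C3 (0.506), CFB (0.669) and CR1 (0.947). CR2 and CD59 kept the call under each of the 25 alternatives of processing. CD55 lost it under 11 of them, C1R under 4 and C1S under 2. Array weights brought in CD46 (adjusted p = 0.00975) and SERPING1 (0.0397), for 7 of 10.

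CR2 (chr1:207454328-207489892), the receptor for C3d and for the virus, lost most of its signal by 8 h and stayed low. Its values were 7.55, 7.79 and 9.07 at 0 h, 6.56, 6.53 and 7.99 at 4 h, and 5.39, 4.83 and 6.13 at 8 h. They were 5.11, 4.75 and 5.36 at 12 h, 5.62, 5.66 and 5.26 at 24 h, and 5.02, 5.50 and 4.77 at 48 h. All arrays of 8, 12, 24 and 48 h lay below all 0 h arrays, while replicate 3 of 4 h was above 2 of the 0 h arrays. Replicate 3 was the highest array at 0, 4, 8 and 12 h and the lowest at 24 and 48 h.

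At 12 h CR2 averaged 5.07 ± 0.31 against 8.14 ± 0.82 at 0 h (SD, n = 3 each), 8.37-fold lower, a log2 difference of -3.07 (SE 0.41, adjusted p = 0.000116 by limma). The difference was -2.68 at 8 h (adjusted p = 0.000586), -2.62 at 24 h (adjusted p = 0.000303) and -3.04 at 48 h (adjusted p = 4.68e-05). By size of fall CR2 stood at rank 66 of 18417 genes at 4 h. It stood at rank 2 at 8 h and 3 at 12 h, then 8 at 24 h and 31 at 48 h. At 4 h it averaged 7.03 ± 0.84, a difference of -1.11 (95% confidence interval -1.98 to -0.25) that was not called (adjusted p = 0.226). Leaving out replicate 3 of 0 h gave -0.65, and leaving out that of 4 h gave -1.60, neither called. With any single array left out, the differences at 8 to 48 h stayed between -3.36 and -2.16.

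Ordered by mean, CR2 was highest at 0 h, followed by 4 h, 24 h, 8 h, 48 h and 12 h. As deposited, none of the steps between consecutive times was called for it. The step of 8 h minus 4 h was -1.57 (95% confidence interval -2.44 to -0.71, adjusted p = 0.156), and was called with array weights alone (-1.33, adjusted p = 0.0106). The later steps were -0.38 for 12 h minus 8 h, 0.44 for 24 h minus 12 h and -0.42 for 48 h minus 24 h, with adjusted p of 0.887, 0.768 and 0.814. Neighbouring times from 8 h on were thus not separated by these tests. Over the 18 arrays, the genes whose levels followed CR2 most closely were ETS1 (Pearson r 0.95), BACE2 (0.94), CTPS2 (0.94), PLAC8 (0.94) and STS (0.93). These correlations describe arrays that share the same harvest times.

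CR1 (chr1:207496157-207641765), the C3b receptor whose gene lies beside CR2, was near background at all 6 times. Its means ran from 2.67 to 2.88 and its single arrays from 2.33 to 3.22, under the array's own lower quartile on 17 of 18 arrays. A change in CR1 was not detectable at this signal.

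CD59 (chr11:33703010-33736479), the inhibitor of the terminal pore, was higher from 8 h on. Its values were 5.72, 5.83 and 6.47 at 0 h, 6.28, 5.99 and 6.59 at 4 h, and 7.13, 6.93 and 7.04 at 8 h. They were 7.23, 7.14 and 7.01 at 12 h, 7.04, 6.85 and 7.24 at 24 h, and 6.54, 6.93 and 6.88 at 48 h. All arrays of 8 h and later lay above all 0 h arrays, and the 4 h arrays overlapped those of 0 h.

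CD59 averaged 7.13 ± 0.11 at 12 h against 6.01 ± 0.40 at 0 h (SD, n = 3 each), 2.17-fold higher, a log2 difference of 1.12 (SE 0.20, adjusted p = 0.00136 by limma). It was higher by 1.03 at 8 h (adjusted p = 0.00347), 1.04 at 24 h (adjusted p = 0.00150) and 0.78 at 48 h (adjusted p = 0.0108), and its difference at 4 h was 0.28 (adjusted p = 0.614). Leaving out single arrays moved that 4 h value between 0.13 and 0.51, the ends being reached when replicate 3 of 4 h or of 0 h was the one left out. Leaving out replicate 1 of 0 h ended the 48 h call (0.63, adjusted p = 0.0614), as did leaving out replicate 2 (0.69, adjusted p = 0.0561). In the fit of the 6 arrays compared it was lost as well (adjusted p = 0.0611). Across the 18 arrays the levels of CD59 and CR2 had a Pearson r of -0.68, the lowest among the pairs of members. Closest to CD59 in level were AFDN (0.93), MCTP1 (0.92), SDCBP (0.92), ATP6V1D (0.92) and NPC1 (0.92), a list chosen after its values were seen.

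CD55 (chr1:207321678-207360966), which speeds the decay of the C3-cleaving enzymes, was highest at 4 h and lowest at 24 h. Its 4 h values were 8.40, 8.55 and 8.66, against 7.65, 7.58 and 8.51 at 0 h, so that replicate 3 of 0 h lay within the 4 h range. The 24 h values were 7.54, 7.57 and 7.20, all below the 0 h arrays, and the levels at 8, 12 and 48 h ran from 7.18 to 8.16. No single time was called against 0 h. The difference was 0.62 at 4 h (95% confidence interval 0.12 to 1.13, adjusted p = 0.249) and -0.48 at 24 h (-0.98 to 0.03, adjusted p = 0.254). Without replicate 3 of 0 h the 4 h difference was 0.92 (adjusted p = 0.0495) and the 24 h difference -0.18. The F test of CD55 had adjusted p from 0.0091 to 0.12 when 1 array was left out, and its call was lost when any 1 array of 4, 12 or 24 h, or replicate 1 of 8 h, was left out.

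CD46 (chr1:207752038-207795516), the cofactor for cleavage of C3b and C4b, was bright throughout, with arrays from 8.88 to 9.77. At 4 h its values were 9.48, 9.77 and 9.74, all above the 9.03, 9.36 and 8.88 of 0 h. The difference was 0.57 (SE 0.16, adjusted p = 0.0791), which missed the threshold. At 8 h it was 0.44 (adjusted p = 0.119), with replicate 2 of 8 h at 9.29, inside the 0 h range. Array weights, which gave that replicate a weight of 0.246, turned both into calls (adjusted p = 0.0342 at 4 h and 0.00341 at 8 h).

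**Figure D2:**
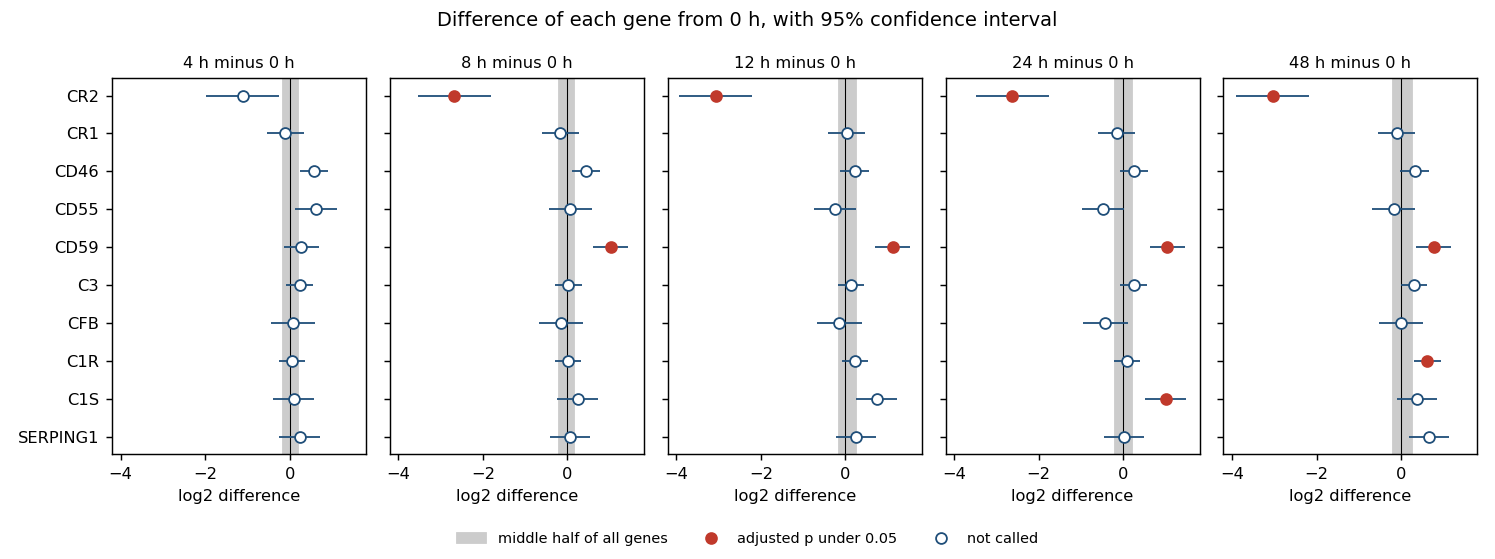
Log2 difference of each complement gene from 0 h (horizontal axes) at 4, 8, 12, 24 and 48 h, with 95% confidence intervals from the fit of all 18 arrays. Filled points passed an adjusted p under 0.05, and the grey band spans the lower to the upper quartile of all 18417 genes. CR2 lies far left of the band from 8 h on (-3.07 to -2.62), CD59 right of it (0.78 to 1.12), with C1S called at 24 h and C1R at 48 h.

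The soluble components other than CFB were measured low on the scale, where background signal can hide changes. C1S (chr12:7060718-7071032), which cleaves C4 and C2, had 3.95, 3.55 and 4.31 at 12 h and 4.08, 4.40 and 4.11 at 24 h, against 3.05, 3.36 and 3.18 at 0 h. Both later groups lay above the 0 h arrays. At 24 h it averaged 4.20 ± 0.18 against 3.20 ± 0.16 at 0 h (SD, n = 3 each), 2-fold higher (log2 difference 1.00, SE 0.23, adjusted p = 0.00654 by limma). The 12 h difference of 0.74 missed the threshold (adjusted p = 0.0561) but passed under 7 of 26 alternatives, with adjusted p from 0.0154 with array weights to 0.0474 without the dimmest genes. Among these were leaving out replicate 2 of 8 h (0.0343) and replicate 2 of 12 h (0.0318). At 48 h the difference was 0.38 (adjusted p = 0.334), where the values of 3.27, 3.60 and 3.85 overlapped those of 0 h. Leaving out replicate 2 of 24 h ended the F test call of C1S (adjusted p = 0.0774), as did quantile normalization (adjusted p = 0.0518).

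C1R (chr12:7080219-7092445), the protease that activates C1S and lies near it, was higher at 48 h. Its values there were 4.25, 4.15 and 4.01, against 3.65, 3.37 and 3.52 at 0 h, with no overlap. The mean was 4.14 ± 0.12 at 48 h against 3.51 ± 0.14 at 0 h (SD, n = 3 each), 1.54-fold higher (log2 difference 0.62, SE 0.15, adjusted p = 0.00682 by limma). Its means at 4 to 24 h ran from 3.52 to 3.74. Its F test call ended when replicate 1 (adjusted p = 0.150) or replicate 2 (0.110) of 48 h was left out, with arrays centred on their medians (0.120) and after quantile normalization (0.0775). The 48 h call itself held under all 26 alternatives.

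SERPING1 (chr11:57597685-57614848), the inhibitor of both proteases, was also highest at 48 h. Its values were 4.07, 4.02 and 3.70 at 48 h against 3.70, 2.74 and 3.36 at 0 h. The 48 h arrays lay above the 0 h arrays by a narrow margin, replicate 3 of 48 h (3.703) over replicate 1 of 0 h (3.697). The difference of 0.66 (95% confidence interval 0.19 to 1.14) missed the threshold (adjusted p = 0.0580). Leaving out replicate 1 of 0 h made it a call (0.88, adjusted p = 0.0184), as did leaving out replicate 3 of 48 h (0.78, adjusted p = 0.0490), while it was 0.40 without replicate 2 of 0 h (adjusted p = 0.309). It was also called with the dimmest genes left out (adjusted p = 0.0498). Means at 4 to 24 h ran from 3.28 to 3.51. The genes closest to SERPING1 in level over the 18 arrays were OLFM2 (Pearson r 0.84), TTR (0.83), CYP4B1 (0.83), RNF207 (0.82) and ROBO1 (0.81).

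C3 (chr19:6677704-6720650), the central component, had means from 3.14 to 3.45, with 2 of 18 arrays under their lower quartile. At 48 h its values were 3.32, 3.40 and 3.63 against 3.29, 2.92 and 3.21 at 0 h, a difference of 0.31 that was not called (adjusted p = 0.204). CFB (chr6:31946095-31952084) had means from 4.70 to 5.21. At 24 h it had 4.71, 4.89 and 4.51 against 5.13, 5.12 and 5.10 at 0 h, a difference of -0.42 (95% confidence interval -0.95 to 0.10, adjusted p = 0.357). Its 2 further probe sets differed by -0.10 and -0.04 at 24 h. At 8 h they were higher by 0.31 and 0.32 where the probe set used differed by -0.15, so the probe sets disagreed in direction there, as they did at 12 and 48 h, and no direction is given for CFB.

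Counted by time, limma called 0 of the 10 members at 4 h, where 1.75% of all genes were called. Unadjusted p was under 0.05 for 3 of them (CR2, CD46 and CD55). At 8 h and at 12 h 2 of 10 were called, CR2 lower and CD59 higher, against 6.68% and 8.05% of all genes. At 24 h 3 of 10 were called (CR2 lower, CD59 and C1S higher), against 12.5% of all genes. At 48 h 3 of 10 were called (CR2 lower, CD59 and C1R higher), against 15% of all genes. The 5 comparisons share the 0 h arrays, so they are not independent of each other. Each count includes CR2, whose fall was known when the members were chosen. In time order, the members' median differences were 0.17, 0.04, 0.18, 0.05 and 0.31, beside 0.03, -0.02, 0.05, -0.01 and 0.05 for all genes. Centring arrays on their medians moved all differences by -0.09, 0.01, -0.12, -0.09 and -0.14 in the same order, which at 24 h is more than the members' median.

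Between consecutive times limma called 0 of 10 members in each of the 4 intervals. For 8 h against 4 h, 0.223% of all genes were called and 3 members (CR2, CD59 and CD55) had an unadjusted p under 0.05. For 12 h against 8 h, 0% of all genes were called and C1S alone of the members had an unadjusted p under 0.05. For 24 h against 12 h, 1.37% of all genes were called and 0 members had an unadjusted p under 0.05. For 48 h against 24 h, C1R (0.54, adjusted p = 0.152), C1S (-0.63, adjusted p = 0.349) and SERPING1 (0.65, adjusted p = 0.316) had one, beside 0.402% of all genes called.

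CR2 was then set against the other members by taking each gene's value minus that of CR2 on the same array. The fall of CR2 was known when the members were chosen, so the share of all genes that differ from it is given beside each count. At 8, 12, 24 and 48 h the change of 9 of 9 other members was higher than that of CR2. For CR1, near background throughout, that difference is set by the fall of CR2 alone. At 8 h C1R (0.006), C3 (0.018), CD55 (0.066) and SERPING1 (0.068) themselves changed little from 0 h. Their differences there are thus also almost wholly the change of CR2. So many genes differed from CR2 (99.8%, 99.8%, 99.3% and 99.1% of all genes called) that the contrast is not particular to complement genes. This moderated fit treats rows that all share the deviations of CR2 as independent. Its total degrees of freedom, 220992 against 12 residual ones, are therefore far too many. The same differences tested without moderation on 12 residual degrees of freedom, an alternative chosen after seeing the data, also called 9 of 9 members at each of these times, with 99.5%, 99.7%, 98.7% and 98.8% of all genes.

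Without moderation, the change of CD59 at 12 h exceeded that of CR2 by 4.19 on the log2 scale (95% confidence interval 3.34 to 5.03, adjusted p = 1.63e-05). Among the 9 members CD59 had the largest such difference at 8, 12, 24 and 48 h, at 3.71, 4.19, 3.66 and 3.82. Leaving CR1 aside, the smallest was that of CFB at 8 h (2.53) and of CD55 at 12 h (2.82), 24 h (2.15) and 48 h (2.87). The place of CFB rests on the probe set used, which changed by -0.15 at 8 h where its others changed by 0.31 and 0.32. The next smallest at 8 h was that of C1R (2.69). The same change of CR2 is subtracted from every member at a given time, so this order is that of the members' own changes. At 24 h the interval for CD55 was 1.36 to 2.94 (adjusted p = 0.000302). At 4 h the moderated fit called CD46 and CD55 (15.6% of all genes) and the unmoderated test CD55 alone, by 1.74 (0.95 to 2.53, adjusted p = 0.0372), with 2.05% of all genes. That 4 h count of 2 became 0 without replicate 3 of 0 h or replicate 1 or 2 of 4 h and 1 without replicate 2 of 0 h or replicate 1 of 12 h. It became 8 without replicate 2 or 3 of 8 h and 9 without replicate 1 of 0 h or replicate 3 of 4 h.

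**Figure D3:**
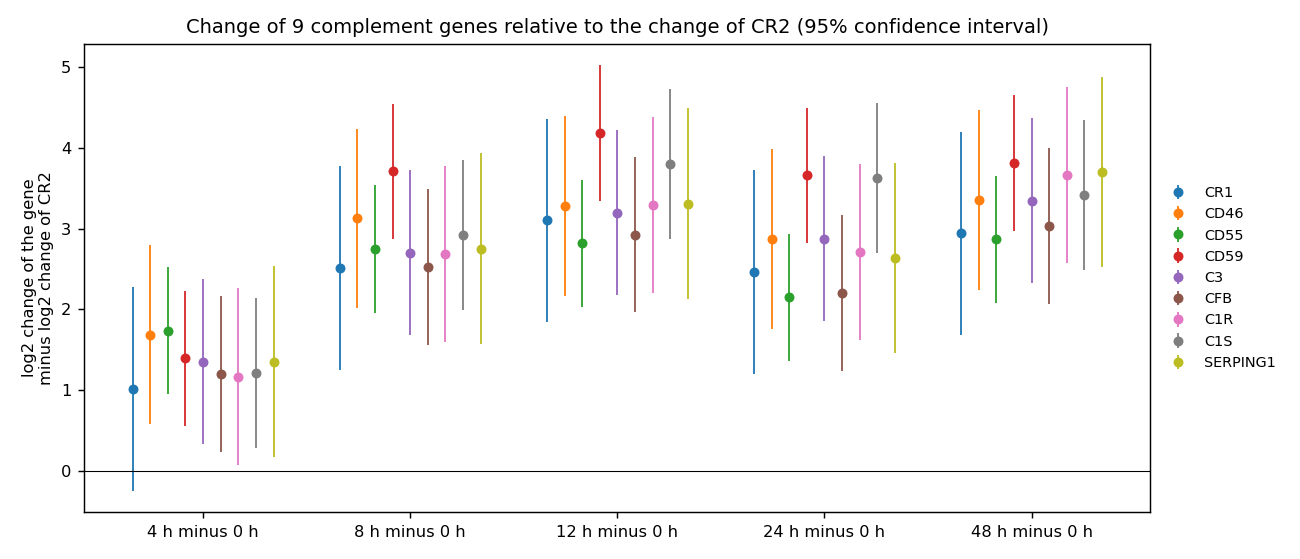
Log2 change of 9 complement genes from 0 h minus the change of CR2 (vertical axis) at each later time (horizontal axis), with 95% confidence intervals on 12 residual degrees of freedom. All 9 intervals at 8, 12, 24 and 48 h lie above 0, and at 4 h only that of CR1 includes 0. CD59 is the highest of the 9 at 8, 12, 24 and 48 h.

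Of 47 other complement genes listed, 40 were measured. The F test called 3 of the 40, against 16.4% of all genes: C3AR1, the receptor for the C3a fragment, and ITGAX and ITGAM, the alpha chains of complement receptors 4 and 3. C3AR1 had 6.75, 5.92 and 5.62 at 24 h against 3.99, 4.20 and 3.44 at 0 h, with no overlap, a difference of 2.22 (adjusted p = 0.000438). It was also called at 8 h (1.62), 12 h (1.81) and 48 h (1.92). ITGAX rose by 1.84 at 24 h (adjusted p = 0.000283), with values of 6.22, 5.57 and 4.58 against 3.83, 3.45 and 3.58 at 0 h. ITGAM rose by 0.85 at 24 h (adjusted p = 0.0129) and by 0.82 at 48 h (adjusted p = 0.0141).

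C3AR1, ITGAX and ITGAM are best known from myeloid cells, and 0 of the 8 monocyte markers passed the F test. Unadjusted p was under 0.05 for 1 of the 8 at 24 h (CSF1R, 0.57) and for 2 at 48 h (CSF1R, 0.46, and CD163, 0.515). Among all 18417 genes it was so for 4174 and 4844. The monocyte list averaged 3.44 to 3.61 on the 24 h arrays and 3.34 to 3.49 on the 0 h arrays, and its part in the result was not tested. C5, the component that starts the terminal pathway, was called lower at 12 h (-0.89, adjusted p = 0.0311) but not by the F test (adjusted p = 0.0546). In order from 4 to 48 h, 0, 1, 3, 3 and 3 of the 40 were called, with C5 the only lower one, beside 1.75%, 6.68%, 8.05%, 12.5% and 15% of all genes. The median difference of the 40 was 0.15 at 48 h and 0.01 at 24 h. When arrays were weighted, 10 of the 40 passed the F test, and 5422 of all genes did so against 3023 without weights.

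Of 14 listed partners of CR2 and B cell genes, 12 were measured. The F test called 5 of the 12, against 16.4% of all genes. BLNK, the B cell receptor linker, fell by 2.99 at 48 h (adjusted p = 2.01e-06), with values of 4.97, 5.11 and 4.39 against 7.94, 7.65 and 7.86 at 0 h. PAX5, the B cell identity factor, fell by 1.34 (adjusted p = 0.0102), MS4A1 (CD20) by 1.26 (adjusted p = 0.0105) and the inhibitory receptor CD72 by 1.07 (adjusted p = 0.00219), all at 12 h. PAX5 and MS4A1 were no longer called at 24 h (adjusted p = 0.124 and 0.0607) or 48 h (0.098 and 0.519). IFITM1, which associates with the CR2 co-receptor at the B cell surface, instead rose by 2.44 at 48 h (adjusted p = 0.000635). Its values were 6.412, 7.003 and 4.571 at 48 h against 3.64, 3.55 and 3.50 at 0 h, without overlap. CD81, the tetraspanin of the same complex, and FCER2 (CD23), a ligand of CR2, were not called (adjusted p of the F test 0.914 and 0.618). FCER2 was near background at 0 h (mean 2.95), and its highest mean was 3.28 at 4 h, where background signal can hide changes. The count of 5 became 3 when replicate 1 or 2 of 0 h or replicate 3 of 12 h was left out. CD79A was called lower at 48 h (-1.77, adjusted p = 0.0115) but not by the F test (adjusted p = 0.06955). CD22 was likewise called lower at 12 h (-1.29, adjusted p = 0.0344) but not by the F test (adjusted p = 0.106). In order from 4 to 48 h, 0, 3, 5, 2 and 4 of the 12 were called, with IFITM1 at 48 h the only higher one. Of all genes, 1.75%, 6.68%, 8.05%, 12.5% and 15% were called.

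**Figure D4:**
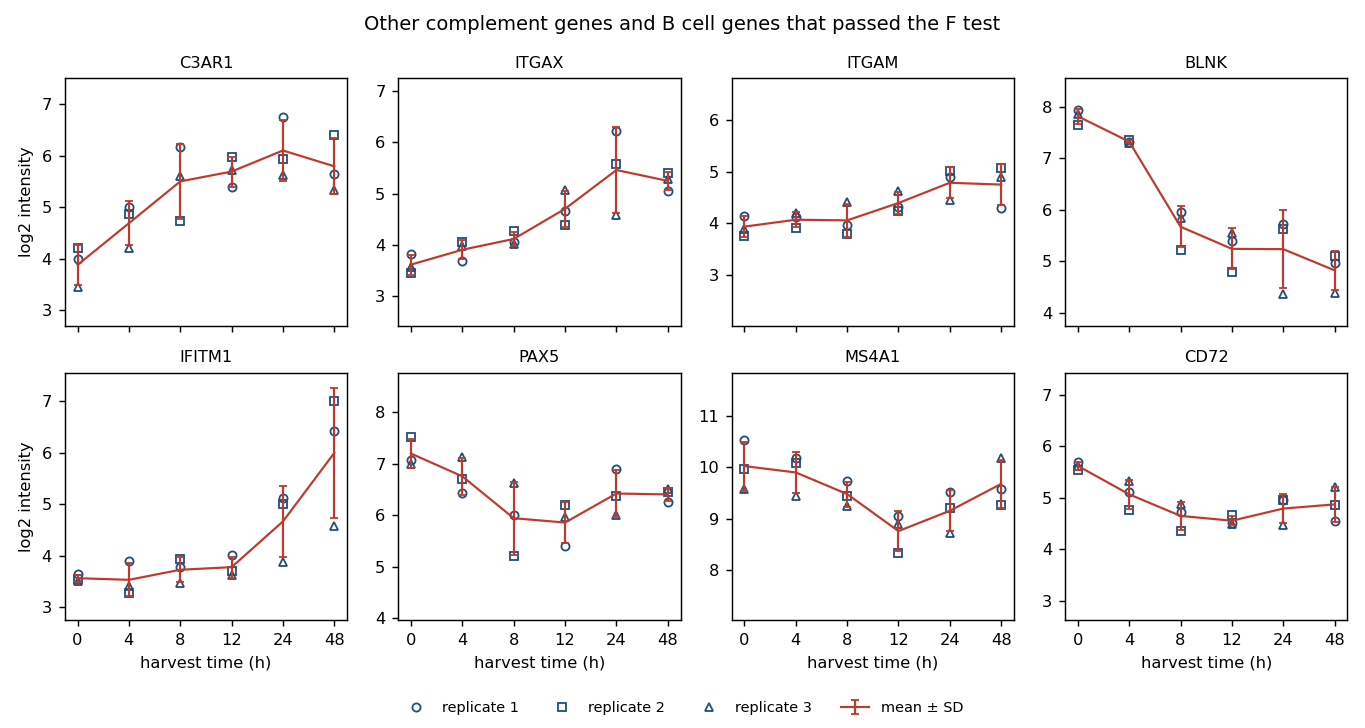
Log2 intensity (vertical axes) of the 3 other complement genes and 5 B cell genes that passed the F test, by harvest time (horizontal axis, h, evenly spaced), with single arrays as symbols and means ± SD of 3 arrays as lines. C3AR1, ITGAX and ITGAM lie higher at 24 and 48 h than at 0 h, and BLNK, PAX5, MS4A1 and CD72 are lower at 12 h than at 0 h. IFITM1 is highest at 48 h, with replicate 3 (4.57) below the other arrays of that time.

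CFB, C1R, C1S and SERPING1 are known as interferon-inducible genes in other cell types, so their values were set beside 9 measured interferon-response genes of 12 listed. Of those 9, 7 passed the F test, against 16.4% of all genes. At 24 h 7 were called higher and at 48 h 7, where 12.5% and 15% of all genes were called in either direction, with median differences of 2.079 and 1.998. At 4, 8 and 12 h limma called 0 of the 9 (2, 2 and 1 with an unadjusted p under 0.05), beside 1.75%, 6.68% and 8.05% of all genes, with median differences of 0.06, -0.09 and 0.04. IFIT1, whose product binds viral RNA, rose by 6.89 at 48 h, CXCL10, a chemokine, by 4.28 and ISG15, a ubiquitin-like modifier, by 2.94. The other genes past the F test were IRF1 (2.79 at 24 h), TAP1 (2.08 at 24 h), PSMB9 (1.17 at 48 h) and IRF9 (1.17 at 24 h). MX1 (-0.09 at 24 h and 0.44 at 48 h) and IRF7 (0.02 and 0.40) did not pass it, with adjusted p of 0.0772 and 0.162. The means of MX1 ran from 3.23 at 4 h to 3.81 at 48 h, low on the scale, where background signal can hide changes. Of the 4 complement genes, C1S was called at 24 h and C1R at 48 h, while CFB and SERPING1 were called at neither time. A link between these genes and the interferon list was not tested.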

How the data were processed

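mRNA of Raji cells was measured on 18 Affymetrix arrays, 3 per harvest time, and their number limits the precision. The deposited values are log2 intensities, a scale deduced from their range. Similar array medians point to normalization between arrays by the authors, but its method, the software and the background correction are not given in the sources used here. Of 33297 probe sets, the platform gene table named 1 gene for 19460 and several for 1754, and 12083 were unnamed here. The probe set of highest mean stood for each of 18417 genes, with no filter on dim genes. Positions are from RefSeq (GRCh38.p14).

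Harvest time was the sole term of a linear model for the 18 arrays together, fitted and moderated by empirical Bayes in limma 3.58.1 (R 4.3.3), with 12 residual degrees of freedom and a prior of 5.58. The two-sided contrasts were 4, 8, 12, 24 and 48 h minus 0 h and the 4 steps from 4 h on, and an F test covered all times. The Benjamini-Hochberg adjustment ran over all genes, and a gene was called at an adjusted p under 0.05. Scripts were tested on simulated data. Tables and plots were made with Python 3.11.15, pandas 2.3.3 and matplotlib 3.10.9.

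The members and lists were chosen with earlier results of these data known. All 10 members are named. From each other list the genes past the F test were named, at most 8 by largest difference from 0 h, or where none passed the gene of smallest p. C5, CD79A, CD22, CD81, FCER2, CSF1R, CD163, MX1 and IRF7 were named after their values were seen. So were the other complement genes near background. Alternatives were quantile normalization, centring on array medians, leaving out the dimmest 25% of genes, averaging a gene's probe sets, array weights, the interquartile range as a covariate, only the arrays compared, a replicate block and each array left out.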

Additional observations from a re-analysis of the deposited data

How the results depend on the processing

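The differences of CR2 at 8, 12, 24 and 48 h and of CD59 at 8, 12 and 24 h were called under all 26 alternatives, and no member's difference given from 0 h or between consecutive times changed sign. Of 29 further uncalled differences of members, not given as results, 19 changed sign under some alternative. The F test called 5 members as deposited, 3 after quantile normalization, 4 after centring, 7 with array weights and 3 to 5 with 1 array left out. With 1 array left out it called 3 to 7 of the B cell genes and 3 to 4 of the other complement genes, of which array weights called 10. Array weights, highest for replicate 1 of 8 h (5.184), called 1 member at 4 h, 2 for 8 h against 4 h and 1 for 48 h against 24 h, where 0 were called without them, and leaving out single arrays gave 0 to 1 at 4 h. The 2 members whose 4 h change differed from that of CR2 became 8 after quantile normalization, 7 without the dimmest genes, 4 with averaged probe sets, 9 with array weights, 9 with the interquartile range as covariate, 0 with only the arrays compared, 1 without moderation and 0 to 9 with 1 array left out. The causes were not tested.

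Counts over all genes that moved by over 1.5 times were, for 4 h against 0 h, 322 as deposited, 566 with array weights, 526 with the covariate, 125 with only the arrays compared and 109 to 417 with 1 array left out. For 8 h they were 1230, 2183 with weights, 575 with only the arrays compared and 759 to 1285. For 12 h they were 1483, and 888 to 1733 with 1 array left out. For 8 h against 4 h they were 41, 78 after quantile normalization, 73 after centring, 1039 with weights, 90 with the covariate, 0 with only the arrays compared and 0 to 57. For 12 h against 8 h they were 0, and 142 with weights. For 24 h against 12 h they were 252, 1099 with weights and 105 to 335. For 48 h against 24 h they were 74, 206 with weights, 10 with only the arrays compared and 35 to 258.

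Same-numbered arrays of different times had correlations of deviations from -0.24 to 0.60 (median 0.08), with 20 of 45 pairs over 0.1. Those of different numbers ran from -0.42 to 0.44 (median -0.06), with 25 of 90 pairs over 0.1. Of the 18 arrays, 9 were closest to their own number. The labels do not state a pairing, and the main fit took none. Whether same-numbered arrays share an origin was not tested. With the replicate block 4 members passed the F test (adjusted p = 0.0515 for CD55), 3 were called at 12 h (C1S added, adjusted p = 0.0472), 4 at 48 h (SERPING1 added, adjusted p = 0.0482), and 9 differed from CR2 at 4 h.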
